A study of Rattus norvegicus with 18 samples.

Results

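The genes described here were lowered in the detrusor of spinal cord–injured rats whether or not the rats received inosine. They number 54 of the 32754 genes in the count table, and they were chosen from the measured levels themselves. Levels were in CPM, the count of a gene divided by its library's total count and multiplied by 1000000. A member had a mean above 5 CPM in Control detrusor, and its Control mucosa mean lay within 4-fold of that level. Each of the 3 Control detrusor libraries had to exceed all 6 injured detrusor libraries, and the Control mean had to be at least 1.5 times the mean of SCI-vehicle and of SCI-inosine detrusor, with 0.5 CPM added to each mean. The CPM ranges of Control and SCI-vehicle mucosa had to overlap. The falls in detrusor and the overlap in mucosa are therefore descriptions of the choice, and no test of them is offered as support.

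The study sequenced total RNA from detrusor and mucosa microdissected from wild-type rat bladders, with 3 libraries in each of 6 groups. The injured rats were male Sprague Dawley, 6 to 7 weeks old at a complete transection of the cord at T8. For 8 weeks they were injected intraperitoneally each day with inosine at 225 mg/kg/day (SCI-inosine) or with its 12 mM sodium bicarbonate buffer (SCI-vehicle). Control rats were uninjured and are labelled as receiving no treatment, so injury and the injections cannot be told apart in any comparison with Control. The labels do not say whether detrusor and mucosa libraries with the same number came from one rat, and all libraries carry the same batch label.

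Contraction of detrusor muscle expels urine at voiding. The mucosa faces the lumen, where its epithelium, the urothelium, keeps urine out of the tissue and signals filling to nerves in the connective tissue below. After a complete cord lesion above the sacral segments, voiding becomes reflexive and poorly coordinated with the urethral sphincter, and the muscle works against a raised outlet resistance. Inosine is a purine nucleoside formed from adenosine and is known for effects on nerve growth and inflammation. The counts are of bulk tissue, where fewer cells of a type and less RNA per cell cannot be told apart.

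The genes carry Ensembl identifiers for which no symbols were at hand, so the roles of members are not given and the tissue labels were not checked against marker genes. Identifiers are printed for 2 members, the most abundant and the one with the largest ratio, and other members are called by their rank of mean CPM in Control detrusor, from 1 (highest) to 54. Ranks compare counts without regard to gene length, so they order read abundance and not transcripts.

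Library totals ran from 3255012 to 6810496 counts. Some detrusor libraries stood apart. For 511 mucosa genes, those above 50 CPM in Control mucosa and exceeding Control detrusor over 4-fold, the median position between the Control detrusor level (0%) and the Control mucosa level (100%) was 21.5% in SCI-vehicle replicate 1, against 1.22% to 9.56% in the other injured detrusor libraries. SCI-inosine replicate 2 had counts on 14126 genes, where the other detrusor libraries had 16475 to 17842. The part these libraries have in the falls was not tested.

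The rule narrowed the table in steps. Of 10385 genes above 5 CPM in Control detrusor, 9479 lay within 4-fold of Control mucosa, and 337 of these, or 3.56%, had all Control detrusor libraries above all injured ones. The ratio bound left 62, and the overlap in mucosa left 54. The same rule turned round, for genes raised in both injured detrusor groups, found 79 genes. The 3 members nearest to the bound had Control to SCI-inosine ratios of 1.506, 1.509 and 1.514, with Control to SCI-vehicle ratios of 1.57, 1.58 and 2.00. Just outside it lay a gene at 1.58 for SCI-vehicle and 1.496 for SCI-inosine, one at 1.49 and 1.61, and one at 1.49 and 1.51.

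Members took 1.67% ± 0.318 (SD, n = 3) of all counts in Control detrusor, 0.996% ± 0.1005 in SCI-vehicle and 1.01% ± 0.132 in SCI-inosine detrusor (n = 3 each). The single Control libraries were at 1.86%, 1.85% and 1.31%. The SCI-vehicle libraries were at 1.04%, 1.06% and 0.881%, and the SCI-inosine libraries at 1.096%, 0.859% and 1.08%. The injured groups overlapped, and the third Control library was the lowest of its group. Leaving out SCI-vehicle replicate 1 gave a mean of 0.972% for that group, and leaving out SCI-inosine replicate 2 gave 1.09% (n = 2 each). In mucosa the same genes took 1.03% ± 0.0653 (Control), 0.949% ± 0.123 (SCI-vehicle) and 0.954% ± 0.107 (SCI-inosine, n = 3 each). By column totals their share in injured detrusor was thus close to that in mucosa of any group. The place of injured detrusor relative to mucosa depended on the scaling between tissues, as given further below. The 3 most abundant members held 73.4% of the members' counts in Control detrusor. Without them the shares were 0.445% ± 0.05003, 0.257% ± 0.0333 and 0.267% ± 0.0261 in the 3 detrusor groups, in the same order.

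**Figure D1:**
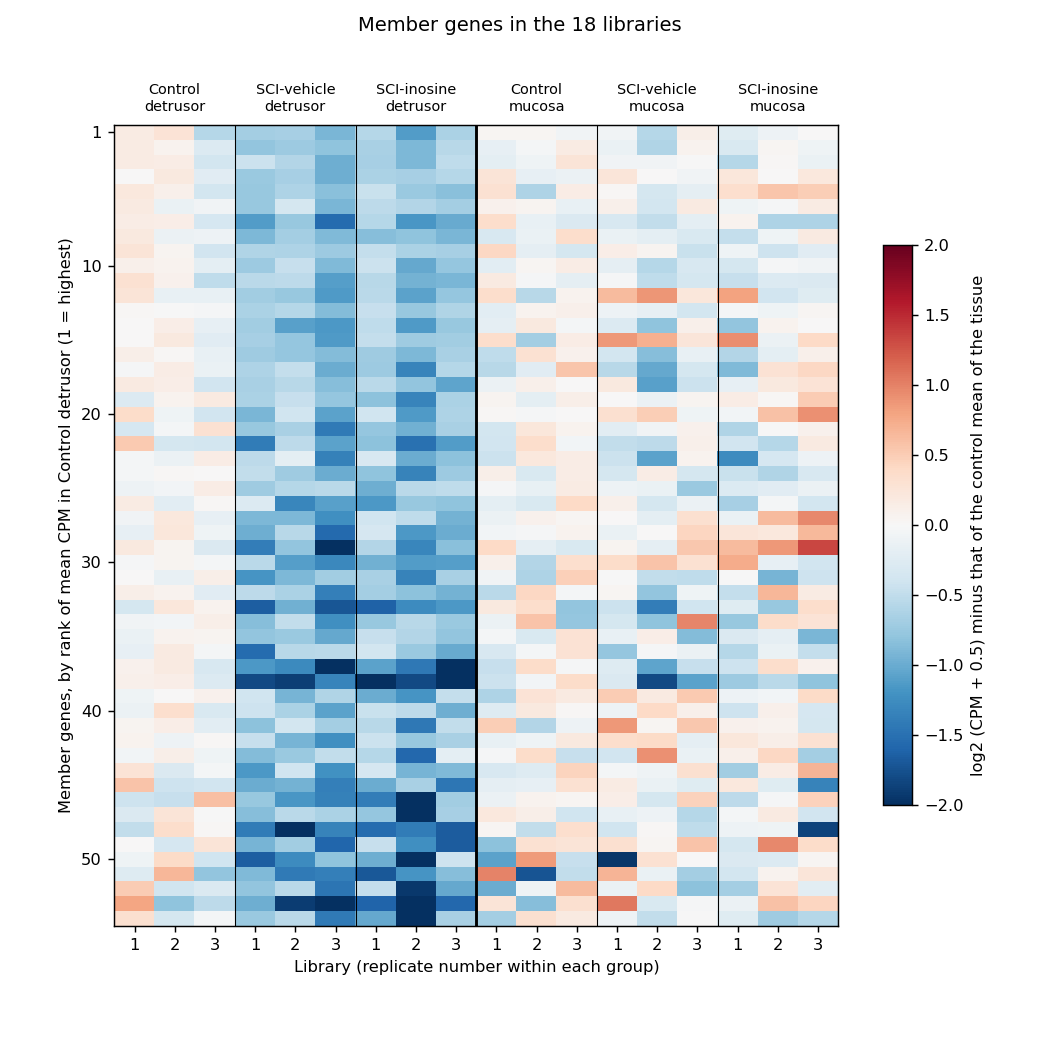
Each row is 1 of the 54 members, ordered by mean CPM in Control detrusor, and each column 1 of the 18 libraries. Color gives log2 (CPM + 0.5) minus that of the Control mean of the same tissue, from -2 (dark blue) to 2 (dark red). The 6 injured detrusor columns are blue in every row, as the rule required, and the mucosa columns hold both colors.

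ENSRNOG00000030644 was the most abundant member. Its Control detrusor libraries stood at 6343, 6832 and 3838 CPM, its SCI-vehicle libraries at 3554, 3590 and 2996 CPM, and its SCI-inosine libraries at 3815, 2603 and 3643 CPM. The third Control library lay only just above the first SCI-inosine library, while the other Control libraries were far above both injured groups. In mucosa, ENSRNOG00000030644 read 3046, 3053 and 2818 CPM in Control, 2845, 1996 and 3232 in SCI-vehicle and 2517, 2784 and 2983 in SCI-inosine. The mucosa groups overlapped. From Control detrusor the fitted change of ENSRNOG00000030644 was -0.81 (log2, SE 0.26) in SCI-vehicle and -0.87 (SE 0.26) in SCI-inosine detrusor. Between the injured groups it was -0.06 (log2, SE 0.26), and this sign turned to 0.12 without SCI-inosine replicate 2.

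ENSRNOG00000042889 had the largest ratio to both injured groups, at 3.13 for SCI-vehicle and 4.02 for SCI-inosine. It was a low gene, ranked 38, with 14.7, 14.9 and 11.2 CPM in Control detrusor, 3.54, 3.32 and 5.17 in SCI-vehicle and 2.50, 3.53 and 3.02 in SCI-inosine. Its lowest Control library was 2.17 times its highest injured library, the widest such gap of any member, and SCI-vehicle and SCI-inosine overlapped. The fitted difference of ENSRNOG00000042889 between SCI-inosine and SCI-vehicle detrusor was -0.48 (log2, SE 0.32). Its mucosa values were 2.36, 3.20 and 4.47 CPM in Control, 2.64, 0.60 and 1.32 in SCI-vehicle and 1.82, 2.15 and 1.70 in SCI-inosine. All SCI-inosine mucosa libraries were below all Control ones, while SCI-vehicle reached into the Control range. The fitted mucosa changes of ENSRNOG00000042889 from Control were -1.20 (log2, SE 0.48) in SCI-vehicle, a contrast the rule used, and -0.80 (SE 0.48, adjusted p = 0.998, edgeR quasi-likelihood test) in SCI-inosine, which missed the threshold.

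**Figure D2:**
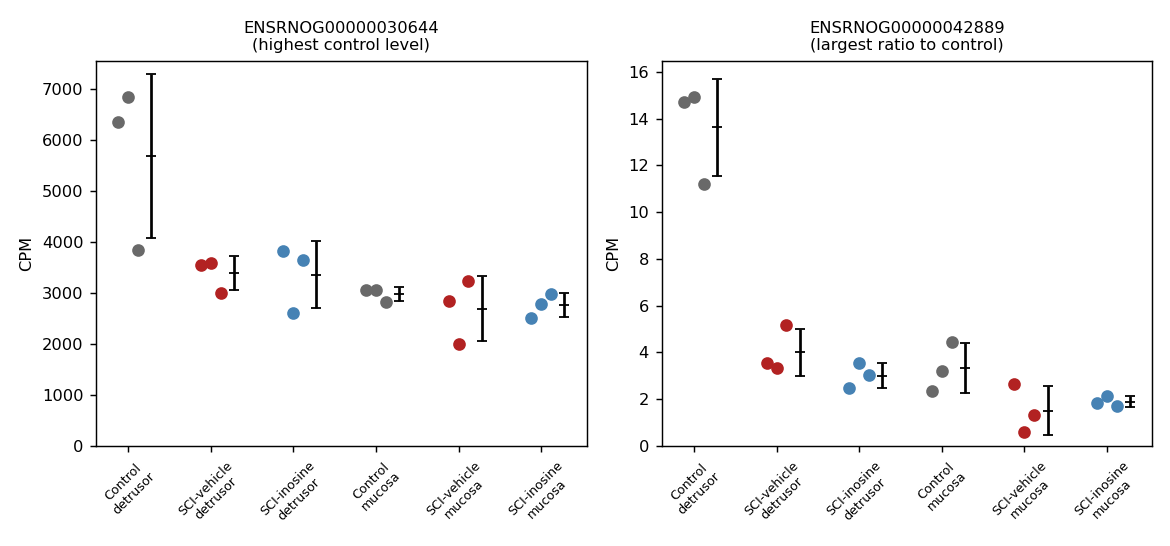
CPM of ENSRNOG00000030644 (left) and ENSRNOG00000042889 (right) in each library of the 6 groups, on axes from 0. Points are libraries and the bar beside them is the mean with its SD (n = 3). The third Control detrusor library of the left gene, at 3838 CPM, lies close to the highest injured library at 3815 CPM, and the Control detrusor libraries of the right gene, from 11.2 to 14.9 CPM, lie well clear of the injured ones.

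The next most abundant members had the same shape in detrusor. The second was at 4344, 4043 and 3215 CPM in Control, 2245, 2342 and 2203 in SCI-vehicle and 2459, 2066 and 2625 in SCI-inosine. The third fell from 3066, 3011 and 2106 CPM to 2032, 1817 and 1387 CPM in SCI-vehicle and 1725, 1471 and 1910 CPM in SCI-inosine. In both, as in the first, replicate 3 was the lowest Control library. The fourth member, far less abundant, read 604, 689.8 and 516 CPM in Control, 359.9, 379 and 307.5 in SCI-vehicle and 387, 382 and 406 in SCI-inosine. It was the single member whose SCI-inosine detrusor libraries all lay above its SCI-vehicle ones, and its fitted difference was 0.11 (log2, SE 0.15).

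Levels spanned a wide range. Control detrusor means ran from 5.29 to 5671 CPM with a median of 37.6 CPM. By level, 13 members lay from 5 to 10 CPM, 25 from 10 to 100 CPM, 13 from 100 to 1000 CPM and 3 above 1000 CPM. The ratio of Control to SCI-vehicle ran from 1.52 to 3.13 (median 1.77) and that of Control to SCI-inosine from 1.51 to 4.02 (median 1.73). Both ratios reached 2 in 9 members and 3 in 2 members. The low members had the larger ratios, with medians of 2.03 for SCI-vehicle and 2.25 for SCI-inosine from 5 to 10 CPM, against 1.68 and 1.62 for the 3 members above 1000 CPM. They were also the noisiest by the median coefficient of variation (SD as a percent of the mean) among Control detrusor libraries. It was 30.3% from 5 to 10 CPM, 13.4% from 10 to 100 CPM, 14.4% from 100 to 1000 CPM and 19.8% above 1000 CPM.

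The member with the second largest ratio was one of the low members. Ranked 53, it had 9.87, 2.92 and 3.66 CPM in Control detrusor, 2.56, 1.11 and 0.61 in SCI-vehicle and 1.47, 0.15 and 1.51 in SCI-inosine. Its mean rested on the first Control library, while the second Control library was just above the highest injured one, and the third was clearer of it. The members ranked 48 and 37 came next by ratio. The first of these was at 4.47, 8.44 and 6.58 CPM in Control, against 1.11 to 2.28 CPM in all injured libraries, and the second at 15.1, 16.1 and 11.2 CPM in Control, against 1.89 to 6.46 CPM.

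The gap between groups was mostly narrow. The lowest Control library was 1.00 to 2.17 times the highest injured library (median 1.18), and in 14 members the factor was under 1.1. Control replicate 3 was the lowest Control library for 29 members, replicate 1 for 12 and replicate 2 for 13. SCI-inosine replicate 1 was the highest injured library for 22 members, SCI-vehicle replicate 2 for 12, SCI-inosine replicate 3 for 9, SCI-vehicle replicate 1 for 8, SCI-vehicle replicate 3 for 2 and SCI-inosine replicate 2 for 1. Without Control detrusor replicate 3, the rule selected 138 genes in place of 54, 46 of them members. The rule selected 63 genes, 51 of them members, without SCI-vehicle replicate 1, the library nearest to mucosa. With TMM or DESeq2 scaling in place of column totals, 51 of the 54 members still had every Control detrusor library above every injured one. The whole rule, however, kept only 40 of the 54 with each of these scalings.

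The depth of the fall differed among libraries of a group. The median member stood at -0.76, -0.67 and -1.08 (log2 of CPM + 0.5 relative to the Control mean) in SCI-vehicle replicates 1, 2 and 3, and at -0.64, -1.10 and -0.77 in SCI-inosine replicates 1, 2 and 3. SCI-vehicle replicate 3 held the lowest injured value of 24 members and SCI-inosine replicate 2 that of 19. The spread within each injured group was thus wider than the distance between the group means of these medians, which were both -0.84 (SD 0.21 in SCI-vehicle and 0.24 in SCI-inosine, n = 3 each). Of 324 pairs of a member and a detrusor injured library, 3 had no count, all in SCI-inosine replicate 2 and in the members ranked 47, 50 and 54. A count of 0 there allows up to 0.461 CPM (3 counts, counting error only).

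**Figure D3:**
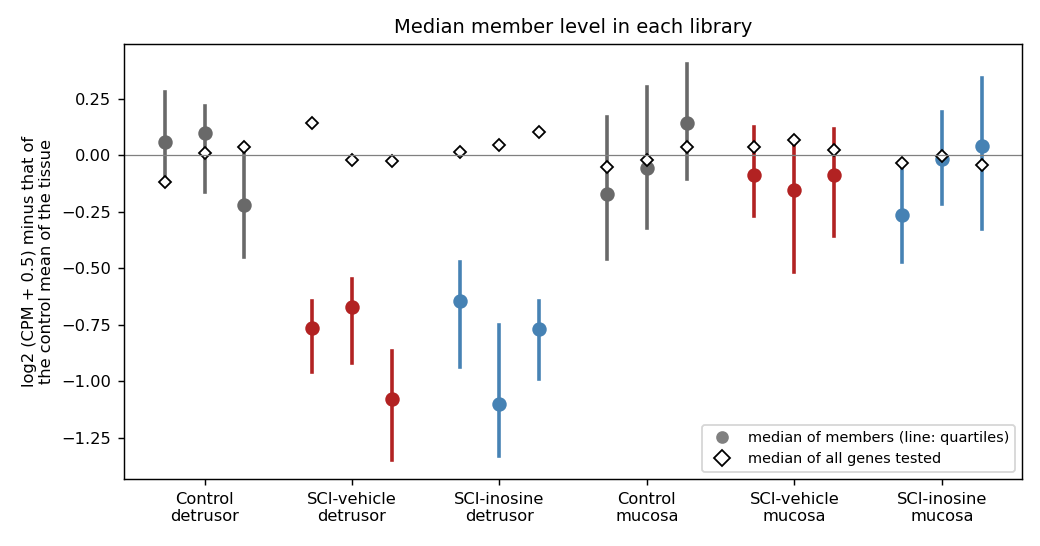
Median of the 54 members in each library (circles, with lines from the lower to the upper quartile) and median of all 15740 genes tested (open diamonds), as log2 (CPM + 0.5) minus that of the Control mean of the tissue. Each Control library is set against the mean of the other Control libraries of its tissue. Member medians lie from -0.64 to -1.10 in the injured detrusor libraries and from -0.26 to 0.14 in mucosa, and the diamonds stay between -0.12 and 0.14.

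The fit across all 15740 genes (over 1 CPM in 3 or more libraries, which kept all 54 members) gives the size of the falls. The median member changed by -0.91 on the log2 scale in SCI-vehicle (range -2.07 to -0.66) and by -0.91 in SCI-inosine (range -2.50 to -0.71), beside 0.01 and -0.01 for all genes tested. The medians were -0.85 in SCI-vehicle without its replicate 1 and -0.80 in SCI-inosine without its replicate 2. In SCI-vehicle against Control detrusor, 0 members passed an adjusted p of 0.05 by edgeR, where 0.0762% of all genes did. At an unadjusted p under 0.05, 47 members were lower (5.42% of all genes), and DESeq2 called 31 after adjustment (2.13%). In SCI-inosine against Control detrusor, 4 members were called by edgeR (0.292%), 49 were lower at an unadjusted p under 0.05 (5.85%), and DESeq2 called 32 (2.22%). These contrasts share the Control libraries and were used by the rule, so nothing is read from these counts. The count of 4 was 0 without any one of Control replicates 1 and 2 or SCI-inosine replicates 2 and 3.

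The injured groups can be set side by side only as a description. The rule required every SCI-vehicle and SCI-inosine library to lie below Control and bounded both means, so a gene that inosine brought back to its Control level was left out by the choice. This narrows how far members can differ between these groups, and the counts below do not answer whether inosine acted on genes lowered by injury. No member was called by edgeR, and 0% of all genes tested were. None reached an unadjusted p under 0.05 (0 of 54), where 4.37% of all genes did, and DESeq2 called 0 members (0.0635% of all genes). The median difference between SCI-inosine and SCI-vehicle was -0.04 on the log2 scale, beside -0.03 for all genes, with quartiles of -0.15 and 0.05 for members and -0.23 and 0.19 for all genes. Fitted values were above 0 for 24 members and below 0 for 30, and by mean CPM the split was 28 to 26. The standard errors ran from 0.14 to 0.85 (median 0.25), beside a median fall of -0.91 from Control. Without SCI-inosine replicate 2 the median difference was 0.06, and without SCI-vehicle replicate 1 it was -0.04.

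The member ranked 27 had the smallest unadjusted p in this contrast (0.0876, adjusted p = 0.951, edgeR quasi-likelihood test). It had 28.9, 26.9 and 19.6 CPM in SCI-inosine and 20.2, 20.2 and 16.1 CPM in SCI-vehicle detrusor, against 36.5, 44.3 and 34.1 CPM in Control. The injured groups overlapped through the third SCI-inosine library, and the difference was 0.36 (log2, SE 0.19). The member ranked 19 came next by p, with 40.7, 28.9 and 46.8 CPM in SCI-inosine and 46.4, 52.5 and 42.4 CPM in SCI-vehicle detrusor. Its groups overlapped, with a difference of -0.34 (log2, SE 0.19, unadjusted p = 0.108, adjusted p = 0.951, edgeR). The member ranked 29 had the highest fitted difference of all members, 0.45 (log2, SE 0.36). It read 23.9, 14.3 and 19.99 CPM in SCI-inosine and 13.6, 20.7 and 6.84 CPM in SCI-vehicle detrusor, so its groups overlapped widely. At the other end, 3 members lay below -0.5, those ranked 47 (-0.69, SE 0.78), 54 (-0.59, SE 0.83) and 46 (-0.52, SE 0.73). All 3 were below 10 CPM in Control, and their SCI-inosine replicate 2 stood at 0, 0 and 0.15 CPM. The fourth member was the only one whose SCI-inosine libraries all exceeded its SCI-vehicle ones, and none had them all below. For all genes tested these shares were 5.59% and 3.34%.

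**Figure D4:**
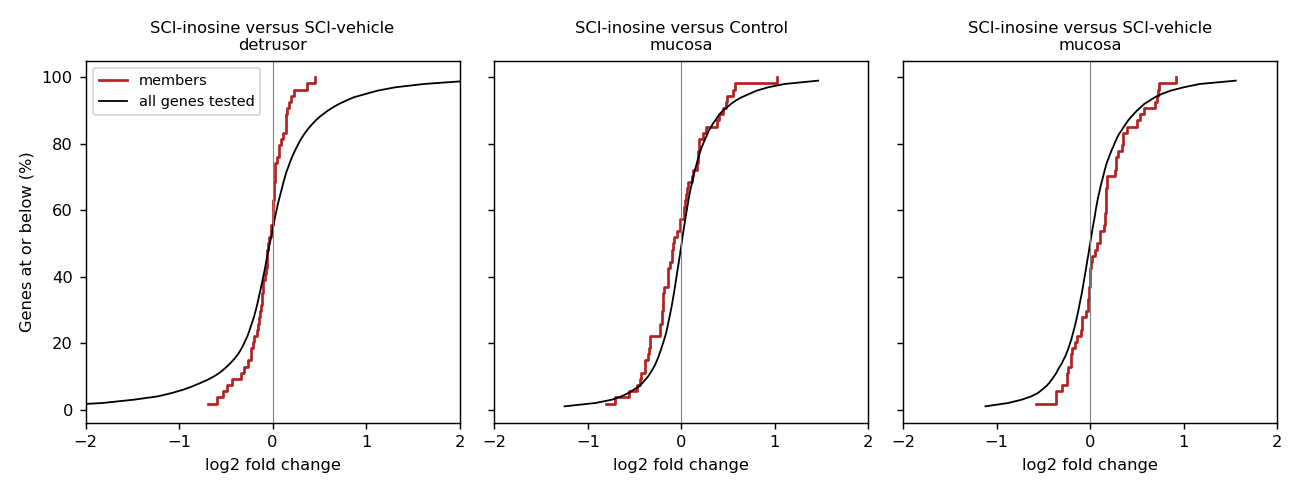
Cumulative percent of genes (vertical axis) at or below each log2 fold change (horizontal axis) for the 54 members (red steps) and all 15740 genes tested (black), in 3 contrasts between groups. In the left panel the members lie from -0.69 to 0.45 and their curve is steeper than that of all genes; in the middle and right panels the curves run close together, with the members somewhat to the left (median -0.08) and to the right (median 0.09).

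In mucosa no member was called by edgeR or DESeq2, and fitted values lay on both sides of 0. The rule required SCI-vehicle and Control mucosa to overlap. Their median change was -0.19 on the log2 scale (range -1.20 to 0.57), with 37 of 54 below 0, beside a median of -0.0038 and 50.5% below 0 for all genes tested. The median size of change, regardless of sign, was 0.28 for members and 0.21 for all genes. In this contrast 0 members were called by edgeR (0% of all genes), or by DESeq2 (0.515%), with 3 lower at an unadjusted p under 0.05 by edgeR (5.55%). The SCI-inosine mucosa libraries took no part in the choice, but the Control and SCI-vehicle mucosa libraries they were set against did. Against Control mucosa, 0 members were called by edgeR (0% of all genes) and 0 by DESeq2 (0.108%). At an unadjusted p under 0.05 by edgeR, 4 were higher and 1 was lower, together 5 of 54, where 4.99% of all genes passed. The median was -0.08 (range -0.80 to 1.03), with 23 members above 0 and 31 below, beside 0.0026 and 49.4% below 0 for all genes. Every SCI-inosine library lay above all Control libraries in 3 members (4.21% of all genes) and below in 3 (6.00%). SCI-inosine against SCI-vehicle mucosa gave 0 calls by edgeR (0.00635% of all genes) and 0 by DESeq2 (0.0826%), and 4 members, all higher, at an unadjusted p under 0.05 (5.53%, with 3.62% higher). Every SCI-inosine library exceeded all SCI-vehicle libraries in 3 members (3.07% of all genes) and fell short of them in 0 (8.06%). The median there was 0.09, with 31 members above 0 and 23 below, beside -0.00080 for all genes. It was -0.0048, with 27 on each side of 0, without SCI-vehicle mucosa replicate 2, and 0.21 without SCI-inosine mucosa replicate 1, in which the median member was the lowest of all mucosa libraries, at -0.26.

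The member ranked 29 had the smallest p among these mucosa comparisons. It stood at 11.6, 7.63 and 6.93 CPM in Control mucosa, 9.10, 7.64 and 12.9 in SCI-vehicle and 13.8, 16.3 and 22.8 in SCI-inosine mucosa. Its SCI-inosine libraries were the highest in that tissue without overlap. The differences were 1.03 (log2, SE 0.30, unadjusted p = 0.00610, adjusted p = 0.829, edgeR) from Control and 0.92 (SE 0.30, unadjusted p = 0.0115, adjusted p = 0.881, edgeR) from SCI-vehicle, and neither passed. In detrusor the same gene went from 41.5, 37.5 and 29.5 CPM in Control to the values given above. The difference between its changes in the 2 tissues was not tested apart from the contrast that the rule had used.

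The fifth member also had its SCI-inosine mucosa libraries above all others, at 158, 185 and 177 CPM, against 156, 81.9 and 139 CPM in Control and 127, 98.7 and 111 in SCI-vehicle. From SCI-vehicle the difference was 0.70 (log2, SE 0.21, unadjusted p = 0.00832, adjusted p = 0.881, edgeR). In detrusor it read 546.9, 508 and 369 CPM in Control, 280.5, 309 and 265 in SCI-vehicle and 349.6, 284 and 265 in SCI-inosine, with no difference past the spread between the injured groups (0.02, SE 0.20). The member ranked 27 stood at 30.2, 51.6 and 64.9 CPM in SCI-inosine mucosa, against 33.3, 28.8 and 41.4 CPM in SCI-vehicle mucosa, and these groups overlapped (0.58, SE 0.25, unadjusted p = 0.0435, adjusted p = 0.881, edgeR). The member ranked 20 stood at 52.0, 81.4 and 103 CPM in SCI-inosine mucosa, against 54.9, 53.3 and 54.3 CPM in Control (0.55, SE 0.22). Its first SCI-inosine library lay below Control, so the groups overlapped. The member ranked 24 went the other way, with 28.6, 25.5 and 31.3 CPM in SCI-inosine and 42.2, 31.4 and 43.6 CPM in Control mucosa (-0.44, SE 0.18), values that came close without overlapping. Neither of the members ranked 20 and 24 passed after adjustment (0.968 and 0.972 for adjusted p, edgeR).

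**Figure D5:**
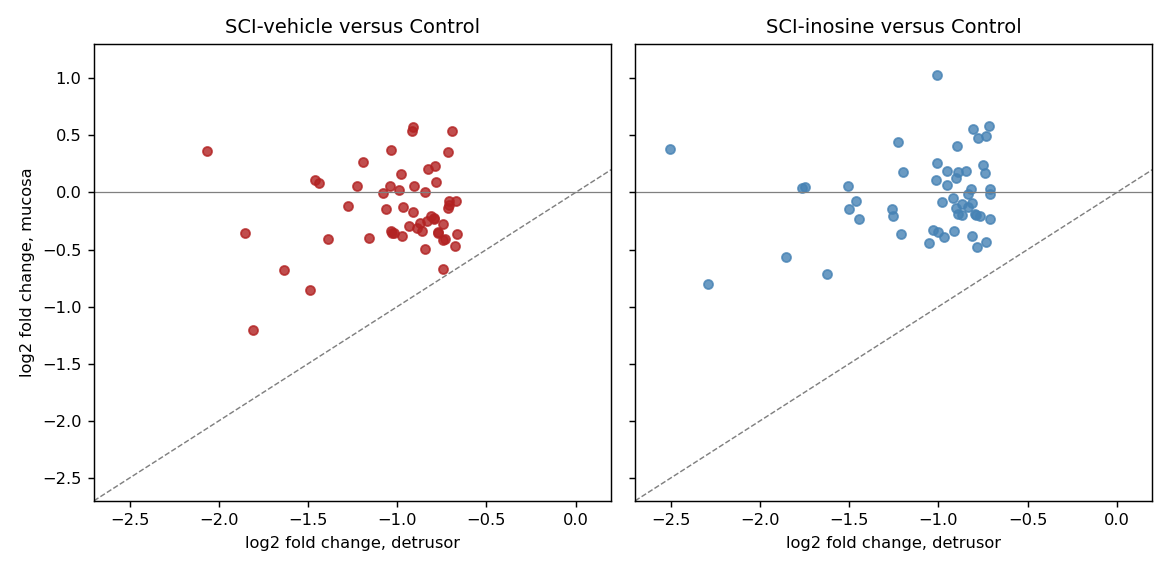
Fitted log2 fold change of each of the 54 members in detrusor (horizontal axis) and mucosa (vertical axis), for SCI-vehicle (left) and SCI-inosine (right) against Control. Points are members, the dashed line marks equal change and the solid line 0 in mucosa. All 54 points lie above the dashed line in both panels, with mucosa changes from -1.20 to 0.57 on the left and from -0.80 to 1.03 on the right.

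Side by side, the change in mucosa lay above that in detrusor for 54 of 54 members in each injured group, which the choice of members largely fixes. The median distance was 0.72 in SCI-vehicle and 0.95 in SCI-inosine (log2). Some members were lower in mucosa as well: 4 changed by less than -0.5 there in SCI-vehicle and 3 in SCI-inosine, ENSRNOG00000042889 among both. The detrusor change minus the mucosa change for SCI-inosine had a median of -0.97 (range -2.90 to -0.31), with 0 members called by edgeR (0% of all genes), 35 lower at an unadjusted p under 0.05 (4.43%) and 5 called by DESeq2 (0.445%). Its detrusor side was used by the rule, so these counts are a description.

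In the uninjured Control rats most members were more abundant in detrusor than in mucosa. By mean CPM 44 of 54 were higher in Control detrusor, where 27.3% of the genes above 5 CPM were, and all Control detrusor libraries lay above all Control mucosa libraries in 27 members (11.7% of all genes tested) and below in 3 (55.3%). The rule bounded the ratio of these levels at 4-fold. It also chose genes for high Control detrusor libraries, which favors detrusor over mucosa in Control. The genes set beside the members did not have to meet these conditions, so the counts are a description of the choice. The shares are by column totals. The count of means depends on the scaling between tissues. With TMM factors 50 members and 57.4% of those genes were higher in detrusor, and with DESeq2 size factors 50 and 56.9%. The ratio of Control detrusor to Control mucosa by CPM ran from 0.320 to 3.98, within the 4-fold bound, with a median of 1.55.

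Members differed in where the fall left their means relative to the Control mucosa mean, and this too depends on the scaling between tissues. These places compare group means without regard to the spread among libraries. By column totals the Control mucosa mean lay below both injured detrusor means in 19 members, between the injured and Control detrusor means in 21, between the means of the injured groups in 4, and above Control detrusor in 10. With TMM or with DESeq2 size factors these counts were 30, 16, 4 and 4. Under all 3 scalings 33 members kept 1 place: 19 with mucosa below both injured means, 10 with mucosa between the injured and Control means, and 4 with mucosa above Control detrusor. ENSRNOG00000030644 was of the first kind, at means of 3380 CPM in SCI-vehicle and 3354 CPM in SCI-inosine detrusor against 2973 CPM in Control mucosa by column totals (SD 333, 656 and 134, n = 3 each). The libraries of ENSRNOG00000030644 overlapped between Control mucosa and each injured detrusor group. The member ranked 23 was of the last kind. It had 42.2 ± 3.99 CPM in Control detrusor, 27.4 ± 10.3 in SCI-vehicle, 26.2 ± 6.71 in SCI-inosine and 133 ± 29.8 in Control mucosa by column totals (SD, n = 3 each). With TMM its Control means were 52.3 in detrusor and 112 in mucosa, in the same order.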

How the data were processed

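Raw counts per gene were used as the authors deposited them: whole-number read counts for 32754 Ensembl identifiers in 18 libraries, with no normalization. The submitters' processing notes name Trim Galore 0.6.10, STAR 2.7.10a, featureCounts 2.0.3 and build Rnor_6.0, and libraries were stranded and ribosomal RNA–depleted. Totals were 3255012 to 6810496 counts, and the lowest Control detrusor count of any member was 13.

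Members were found from CPM by column totals. Tests were two-sided edgeR 4.0.16 quasi-likelihood tests (R 4.3.3) with TMM scaling on the 15740 genes above 1 CPM in at least 3 libraries, fitted by group within each tissue (all 18 libraries for the difference between tissues), with Benjamini-Hochberg adjustment over all genes tested. Scripts were tested on simulated data. Log2 fold changes are edgeR's unless given as CPM + 0.5. Their SE is the size of the log2 fold change divided by the square root of the test's F statistic. DESeq2 1.42.0, other scaling, filters, models, a replicate block and leaving out each library were alternatives. The study describes 3 biological replicates per condition, and the labels do not name the rats. The members and lists were chosen with earlier results of these data known. Members to be named were the most abundant, those with the largest ratio, the 3 with the smallest p in SCI-inosine against SCI-vehicle (each tissue) and in SCI-inosine against Control mucosa, and those nearest the bound, with at most 2 identifiers printed where symbols are missing. The gene and marker lists were not run, since 0 identifiers could be paired with a symbol. The members ranked 23, 47 and 54, and the scalings used for the place of mucosa, were chosen after the data were seen.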

Additional observations from a re-analysis of the deposited data

How the results depend on the processing

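The number of members was 97 with a level bound of 1 CPM, 9 with a 2-fold bound, and 39 to 138 when single libraries were left out, 138 without Control detrusor replicate 3 and 78 without SCI-inosine detrusor replicate 1. It was 66 with TMM and 62 with DESeq2 size factors, each sharing 40 members. Members called in SCI-vehicle against Control detrusor numbered 31 with DESeq2, 14 with every gene with a count, 4 with all libraries in one model and 0 to 1 with one library left out. In SCI-inosine against Control detrusor they numbered 32, 22 and 10 in the same settings, 1 with only the 2 groups compared, and 0 to 8 with one library left out: 0 when Control replicate 1 or 2 or SCI-inosine replicate 2 or 3 was dropped, 1 and 2 when SCI-vehicle replicate 2 and 3 were, and 8 when SCI-inosine replicate 1 was. The difference between tissues gave 5 with DESeq2. With TMM or DESeq2 size factors, chosen after seeing the data, Control mucosa lay below both injured detrusor means in 30 members (19 by column totals) and above Control detrusor in 4 (10 by column totals). The median of SCI-inosine against SCI-vehicle mucosa ran from -0.0048 to 0.21, the latter without SCI-inosine mucosa replicate 1. By the rule itself, a lower level bound can only add members and a higher ratio bound can only remove them. Leaving out a detrusor library eases the condition that all Control libraries exceed all injured ones, and it also moves the means. For the other changes the cause was not tested.

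With one library left out, the log2 difference of ENSRNOG00000030644 between SCI-inosine and SCI-vehicle ran from -0.20 to 0.12 in detrusor, changing sign to 0.015 in the absence of SCI-vehicle replicate 2 and to 0.12 in that of SCI-inosine replicate 2. In mucosa it ran from -0.090 to 0.27, and that of ENSRNOG00000042889 from -0.038 to 1.07, each below 0 when SCI-vehicle mucosa replicate 2 was dropped. The change of ENSRNOG00000042889 in SCI-vehicle from Control mucosa moved to -1.87 when SCI-vehicle mucosa replicate 1 was dropped. The cause was not tested. Of other recomputed values, 209 on the members as a whole stayed within 1.5 times the count or, for medians, within 1 SD between libraries. The median of SCI-inosine against SCI-vehicle detrusor lay on either side of 0, from -0.15 to 0.064. The 209 include the counts of members called in the mucosa contrasts and in SCI-inosine against SCI-vehicle detrusor, all 0 in every setting. The other 183, on these 2 genes and on the members' share of counts, kept their direction and side of the threshold or, in the contrasts the rule used and the shares, moved by under 1 SD.

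Whether replicate numbers pair the libraries was looked at only within a tissue. The values correlated were each gene's log2 CPM minus its group mean, so they were deviations and not levels. For same-numbered libraries of 2 groups these deviations correlated from -0.12 to 0.24 in detrusor (2 of 9 pairs above 0.1). In mucosa they correlated from -0.26 to 0.46 (5 of 9). Those of differently numbered libraries correlated from -0.25 to 0.21 in detrusor (3 of 18) and from -0.41 to 0.38 in mucosa (7 of 18). No correlation was computed between detrusor and mucosa libraries, so a pairing across tissues was not tested. With a replicate block, SCI-inosine against Control detrusor called 6 members and every other contrast 0. Depth limits the low members most: 8 had a count under 10 in an injured detrusor library.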
